A study of Mus musculus with 9 samples.

Results

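Both mutant genotypes compared here lack enhancers of Grem1, the gene of the secreted BMP antagonist GREMLIN1, and the question was how the limb bud mesenchyme of 1 differs from that of the other. EC1CRM8Δ/Δ (E1C8) and EC1CRM5Δ/Δ (E1C5) forelimb buds are homozygous for alleles that share the deletion of the EC1 enhancer cluster and differ in the further cis-regulatory module deleted on the same chromosome, CRM8 or CRM5. CRM8 was deleted with Cas9 in zygotes that already carried the EC1 deletion, and all strains were kept in a Swiss Albino background. Limbs of both genotypes lose a digit. Each of the 3 E1C8, 3 E1C5 and 3 wildtype (Wt) libraries came from a separate pair of forelimb buds at E10.75 (37 to 39 somites), and single-cell transcripts were counted by unique molecular identifiers (UMIs). A barcode was taken as a mesenchymal cell where it held over 2500 genes, under 200000 UMIs and under 10% mitochondrial UMIs, had Prrx1 at 3 UMIs or more, and lacked any UMI of Lbx1, Epcam, Cdh5 and Tyrobp, which mark muscle progenitors, epithelium, endothelium and myeloid cells. They numbered 24298 of the 92963 barcodes of the 6 mutant libraries, with 411, 6561 and 6063 cells in E1C8 replicates 1 to 3 and 2823, 1625 and 6815 in E1C5. The Wt libraries, which share the estimate of the spread, gave 10373 cells, and the 9 libraries together held 133086 barcodes.

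GREMLIN1 binds BMP ligands outside the cell and keeps them from their receptors. In the limb bud it is expressed by posterior and distal mesenchyme, where it links SHH from the polarizing region to the FGFs of the apical ectodermal ridge, so that its removal raises BMP activity, and BMP target genes such as the Id and Msx genes report that activity. The cells measured are the mesenchymal progenitors from which the skeleton and connective tissue of the limb form.

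Markers of the labelled tissue were compared between the mutants. Beside Prrx1, which chose the cells, the mesenchymal regulators Prrx2, Twist1, Shox2 and Pdgfra and the forelimb gene Tbx5 were read in every library. Tbx5 stood at 105, 118 and 116 CPM in E1C8 (CPM, a gene's UMIs relative to all UMIs of the genes tested in that library, scaled by edgeR's TMM factors) and at 114, 108 and 126 in E1C5. Of 9 mesenchyme markers, Prrx1 included, 0 passed the test in either direction (adjusted p below 0.05), beside 9.67% of all genes tested. Their median log2 fold change was 0.01. Because Prrx1 chose the cells, its own level is no check on them. The count compares the mutants and cannot show that the cells are mesenchyme, because no other cells were set beside them.

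The libraries differed in measures other than genotype, and these values stand beside every result that follows. The median UMIs per mesenchymal cell were 26290, 17102 and 24562 in E1C8 against 44312, 30673 and 34206 in E1C5, without overlap. Haemoglobin genes took 0.527%, 0.881% and 1.43% of the UMIs in E1C8 against 0.420%, 0.207% and 0.105% in E1C5, again without overlap. Immediate early genes took 0.139% to 0.190% in E1C8 and 0.120% to 0.123% in E1C5. For each of these 3 measures the two-sided exact permutation test gave p = 0.1, the smallest that 3 against 3 libraries allow, and 0.367 after adjustment over 11 measures. Mitochondrial and ribosomal protein shares overlapped between the genotypes. E1C8 replicate 1 was the smallest library, with 14545561 UMIs in mesenchymal cells, and E1C5 replicate 3 the largest, with 290105146. By Xist and Y-linked transcripts, E1C8 replicates 1 and 2 and E1C5 replicates 1 and 3 were female and all other libraries male, and at most 18 cell barcodes were shared by any 2 libraries.

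Grem1 is the gene whose enhancers both alleles lack, and it was read first. The gene lies on chromosome 2 (mm10, chr2:113746164-113758646, minus strand). It stood at 9.13, 11.3 and 13.8 CPM in E1C8, at 19.2, 17.2 and 24.8 CPM in E1C5 and at 39.8, 28.6 and 26.0 CPM in Wt. All E1C8 libraries were below all E1C5 libraries. The log2 fold change, E1C8 minus E1C5, was −0.82 (SE 0.20, adjusted p = 0.0286, edgeR's quasi-likelihood test with Benjamini-Hochberg adjustment over 16273 genes, which gave every adjusted p below). Against Wt, Grem1 was lower by a log2 fold change of −1.44 in E1C8 (adjusted p = 0.0042) and the E1C5 value was −0.63 (adjusted p = 0.17). The difference between the mutants kept its direction under every alternative but passed the threshold narrowly. Its adjusted p was 0.0755 with the depth covariate, 0.274 with the haemoglobin covariate, 0.0563 with a replicate block, 0.087 with limma and 0.0578 without a filter, and without E1C5 replicate 1 or 3 or E1C8 replicate 1 or 2 the adjusted p was 0.0526, 0.0882, 0.0833 and 0.106.

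The lower level went with fewer cells in which a Grem1 UMI was found. After thinning each cell to 10000 UMIs, 5.25%, 8.34% and 8.82% of E1C8 cells held a Grem1 UMI against 12.1%, 10.9% and 16.8% of E1C5 cells and a mean of 14.3% of Wt cells. Thinning left out 829 E1C8 cells and 462 E1C5 cells that were shallower. In erythroid-like barcodes, which should lack Grem1, the share at the same depth was 0.755% to 2.68% over 7 libraries with enough of them. The difference of −5.77 percentage points had an exact two-sided permutation p of 0.1 (adjusted 0.189 over 17 genes), and without thinning the shares were 12.2%, 13.2% and 16.7% against 29.9%, 25.3% and 36.1%. Because UMIs were summed over all cells of a library, fewer cells expressing a gene and less RNA per cell cannot be told apart in the sums.

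The neighbours of Grem1 were compared with it. Of 16 genes tested in its neighbourhood, Grem1 included, 0 were higher and 3 were lower in E1C8, beside 5.49% of all genes lower. These were Grem1 itself, Arhgap11a and Aqr, which codes for a helicase of the spliceosome. Aqr stood at 46.2, 46.4 and 47.6 CPM in E1C8, at 79.7, 79.3 and 83.4 CPM in E1C5 and between 62.5 and 79.2 CPM in Wt. The E1C8 values were close to each other and below every other library. Its log2 fold change was −0.79 (adjusted p = 0.00146), and the call was kept without each of the 9 libraries in turn and with depth per cell as a covariate. Arhgap11a had a log2 fold change of −0.59 (adjusted p = 0.0248), with 41.2, 42.5 and 42.8 CPM in E1C8 and 57.8 to 72.4 CPM in E1C5, and lost its call without E1C5 replicate 3 or any E1C8 library (highest adjusted p 0.0872). Fmn1, whose introns hold Grem1 enhancers, had a log2 fold change of −0.34 (adjusted p = 0.327) and Scg5 of 0.21 (adjusted p = 0.799), both at low levels in the 2 mutants. Against Wt, the Fmn1 log2 fold changes were −1.55 in E1C8 and −1.21 in E1C5, with adjusted p-values of 0.00314 and 0.0128, and those of Scg5 were −2.39 and −2.60, with adjusted p-values of 0.00619 and 0.0084.

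Across the transcriptome, 1574 of 16273 genes passed the test between the mutants (9.67%), 681 higher in E1C8 (4.18%) and 893 lower (5.49%). Which direction held more calls depended on the fit, with 853 higher and 644 lower under upper quartile normalization and 550 and 215 with limma. The higher genes had the larger changes, with a median absolute log2 fold change of 0.747 against 0.472 for the lower ones, and 241 of them exceeded 1 against 71 of the lower. The lower genes were the more highly expressed, with a median level of 39.6 CPM against 6.25 CPM. A call was not always carried by all libraries, since 321 of the 1574 (151 higher, 170 lower) were called without each library in turn, and 403 genes were called without E1C8 replicate 2. Calls described as kept with a covariate refer to depth per cell. With the haemoglobin share as a covariate, chosen after the data were seen, only 4 genes were called (Gm7879, Hebp2, Mmrn2 and Gm30564). In the same fit 1363 genes (8.38%) passed between E1C8 and Wt and 207 (1.27%) between E1C5 and Wt. These counts are given side by side and were not compared with each other, because the contrasts share libraries. The calls were spread over the autosomes, from 7.05% of the genes tested on chromosome 7 to 12.75% on chromosome 2, which carries Grem1.

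**Figure D1:**
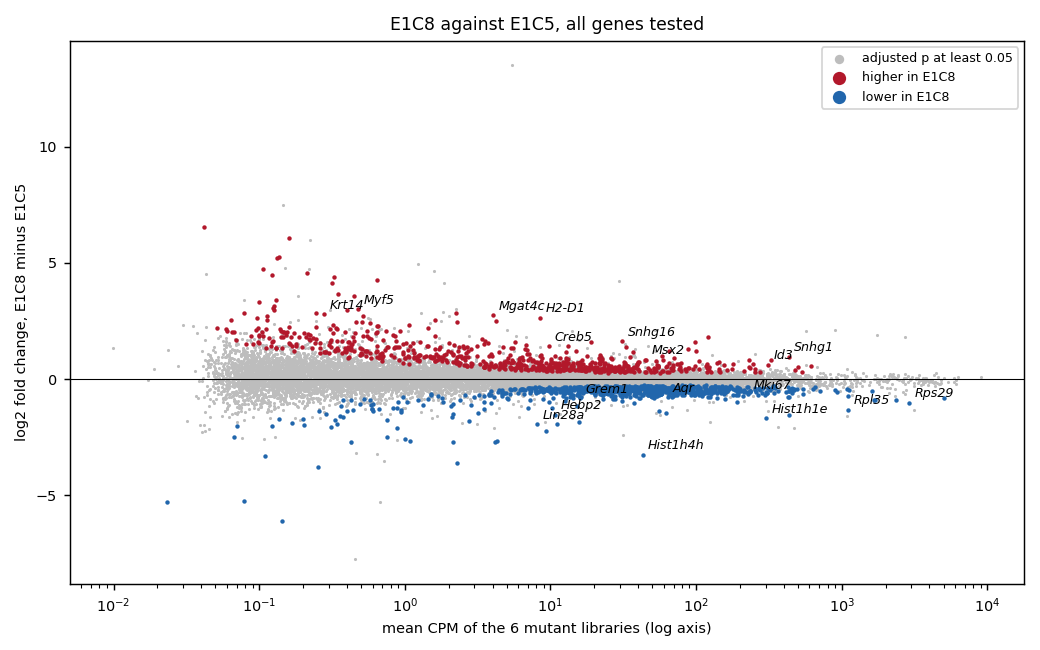
Each point is 1 of the 16273 genes tested, placed by its mean level in the 6 mutant libraries (CPM, log axis) and its log2 fold change, E1C8 minus E1C5. Red and blue points are the 681 higher and 893 lower genes with adjusted p below 0.05, and the blue ones lie mostly at high levels with small changes.

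Of 12 secreted antagonists of BMPs, Grem1 included, 3 were higher (Sostdc1, Nbl1 and Nog) and 2 lower (Grem1 and Smoc1), beside 4.18% of all genes higher and 5.49% lower, with a median log2 fold change of 0.73 against 0.00 over all genes. Smoc1, which codes for a matrix protein that restrains BMP signalling, stood at 9.86, 9.76 and 8.14 CPM in E1C8 against 17.1, 14.2 and 17.6 CPM in E1C5 and 19.2, 16.9 and 12.7 CPM in Wt. All E1C8 libraries were below all others. Its log2 fold change of −0.83 (SE 0.15, adjusted p = 0.00789) was kept without each library in turn and with the depth covariate. Sostdc1, an antagonist of BMP and WNT signals, was at 6.20, 10.6 and 11.7 CPM in E1C8 and at 4.95, 3.38 and 3.56 CPM in E1C5, a log2 fold change of 1.30 (adjusted p = 0.0249). Nbl1 had a log2 fold change of 0.93 (adjusted p = 0.0175) and Nog, which codes for NOGGIN, of 0.79 (adjusted p = 0.0476). The 3 higher antagonists lost their calls without E1C8 replicate 2, among other libraries, with an adjusted p of at most 0.137 when any library was left out.

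Of the BMP and GDF ligands, 1 of 10 passed, Gdf10, beside 9.67% of all genes, with a log2 fold change of 1.11 (adjusted p = 0.0172). It lost its call without E1C5 replicate 3 or E1C8 replicate 2 or 3 (highest adjusted p 0.0998). Bmp4, the main BMP ligand of the early limb bud, stood at 66.51, 75.004 and 74.43 CPM in E1C8 and at 70.19, 69.86 and 67.28 CPM in E1C5. These ranges overlapped, as did those of Bmp7. Bmp2 was at 3.93, 4.25 and 3.89 CPM against 2.77, 1.94 and 3.07 CPM without overlap, with an adjusted p of 0.173. Of 9 BMP receptors and SMADs, 0 passed.

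The BMP target and feedback genes that passed were all higher in E1C8. Of 12 tested, 5 passed (Msx2, Id3, Bambi, Id2 and Smad6), beside 4.18% of all genes higher, and 0 were lower, the median log2 fold change was 0.44, and 9 had all E1C8 libraries above all E1C5 libraries, beside 16.9% of all genes. Msx2, a homeobox gene of the distal and anterior limb bud, stood at 62.8, 61.4 and 49.9 CPM in E1C8, at 29.3, 39.5 and 28.5 CPM in E1C5 and at 25.8 to 36.9 CPM in Wt. Its log2 fold change was 0.84 (SE 0.16, adjusted p = 0.00959), 1.79-fold. Id3, an inhibitor of bHLH factors, stood at 411, 384 and 336 CPM against 243, 280 and 211 CPM, a log2 fold change of 0.62 (adjusted p = 0.00802). Bambi, a pseudoreceptor that damps BMP and TGFβ signals, stood at 72.1, 61.7 and 61.8 CPM against 42.0, 46.2 and 44.1 CPM, a log2 fold change of 0.56 (adjusted p = 0.00438). In these 3 genes the E1C5 libraries lay around the Wt values, with log2 fold changes against Wt of 0.03, 0.11 and 0.12, whereas those of E1C8 were 0.87, 0.73 and 0.68. All 3 calls were kept without each library in turn, and with depth per cell as a covariate only that of Bambi was kept, the adjusted p being 0.0734 for Msx2 and 0.0835 for Id3. Id2 and Smad6 lost their calls without any of 5 libraries, E1C5 replicates 1 and 2 and the 3 E1C8 replicates, with an adjusted p of at most 0.136. Msx1 had a log2 fold change of 0.24 and Id1 of 0.29, neither called (adjusted p = 0.214 and 0.343).

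**Figure D2:**
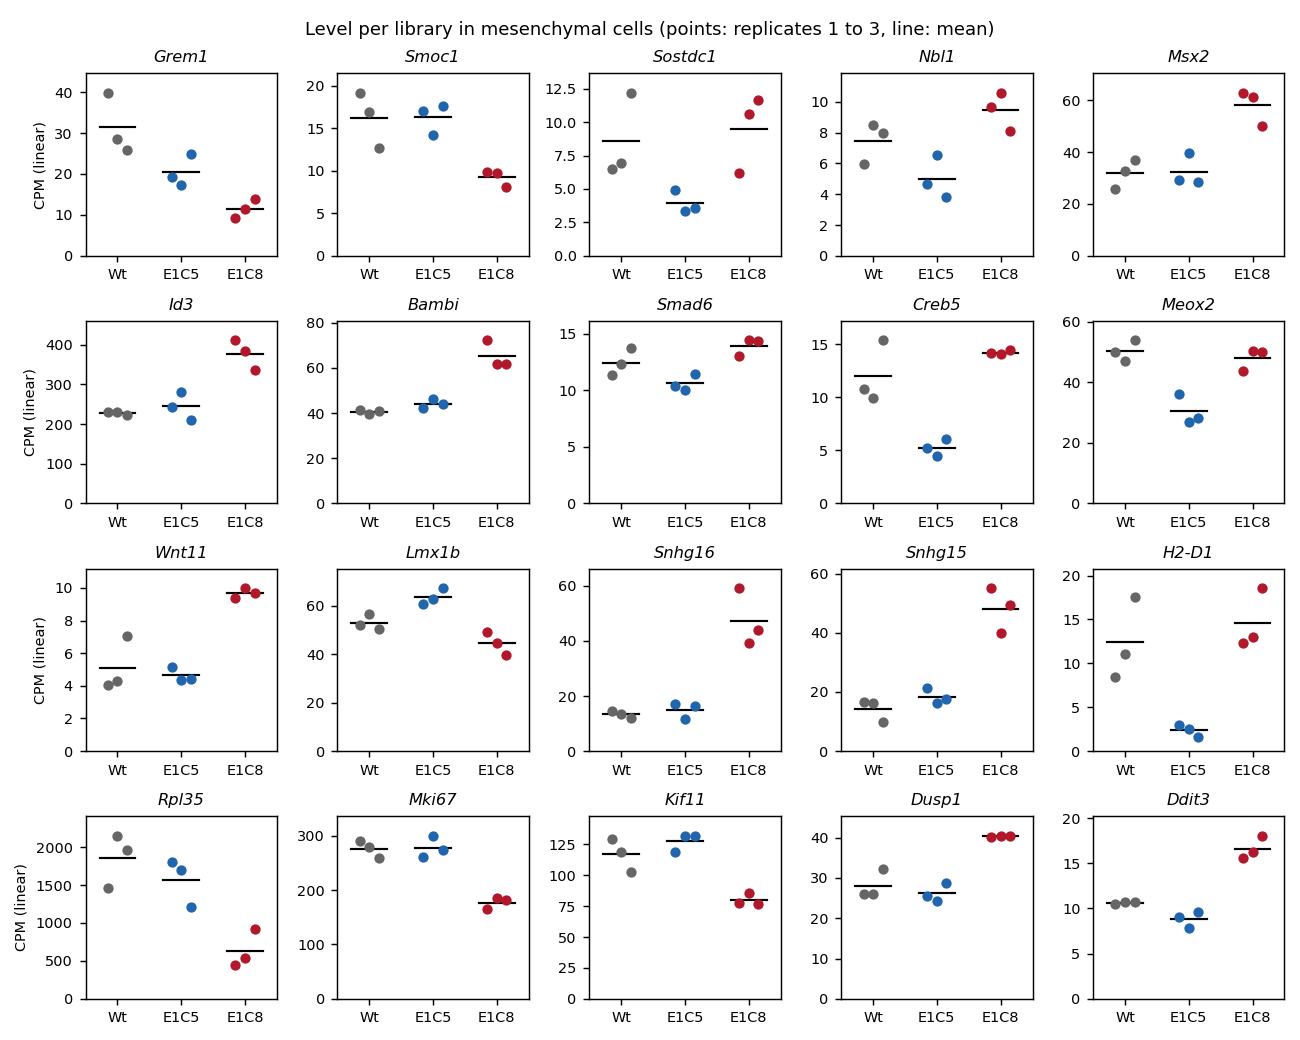
Each panel plots the level of a gene (CPM, linear axis from 0) in the 3 Wt, 3 E1C5 and 3 E1C8 libraries, with points for the replicates and a line for the mean. Grem1 and Smoc1 are lowest in E1C8, Msx2, Id3 and Bambi are highest there with E1C5 near Wt, and Creb5, Meox2 and H2-D1 are lowest in E1C5.

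The shares of cells gave the same order for some of these genes. After thinning to 10000 UMIs, a Msx2 UMI was found in 30.2%, 29.3% and 24.2% of E1C8 cells against 15.9%, 19.8% and 17.1% of E1C5 cells, and an Msx1 UMI in 53.3%, 49.6% and 47.3% against 37.3%, 45.9% and 45.2%. Without thinning the Msx2 shares were 47.0%, 39.5% and 38.4% against 33.5%, 35.8% and 36.6%. The shares of Msx1, Osr1, Pax1 and Hoxa13 overlapped without thinning, and those of Rspo4 at 5000 UMIs. In erythroid-like barcodes the median share was 1.37% for Msx2 and 6.42% for Msx1. Of 17 genes examined in this way, 9 did not overlap between the genotypes at p = 0.1 in the exact permutation test (adjusted 0.189), the others being Gsc, Osr1, Pax1, Col2a1 and Hoxa13, higher in E1C8, and Grem1 and Rspo4, lower. The share over all genes was not computed for cells, and by level 16.9% of all genes had E1C8 wholly above E1C5 and 17.8% wholly below.

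The genes that mark the study's mesenchymal and chondrogenic cell groups were read next. The study chose these signatures on these samples, so their directions are not independent evidence. Signature M1 had 5 of 8 members higher and 0 lower (Gsc, Osr1, Meox2, Ebf2 and Sostdc1), beside 4.18% of all genes higher and 5.49% lower, with a median log2 fold change of 0.66. Osr1, which codes for a zinc finger transcription factor, stood at 31.1, 26.9 and 29.6 CPM in E1C8 against 20.5, 14.5 and 12.7 CPM in E1C5 and 22.2 to 35.5 CPM in Wt. Meox2, which patterns limb muscle and connective tissue, stood at 43.7, 50.1 and 49.9 CPM against 36.2, 26.9 and 28.2 CPM, and at 46.9 to 53.8 CPM in Wt. In both genes E1C8 lay within or near the range of Wt and E1C5 below it. The Meox2 call (log2 fold change 0.66, adjusted p = 0.00742) was kept without each library in turn, and the other 4 were not, with an adjusted p of at most 0.114 when a library was left out.

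Signature M3 had 3 of 8 members lower (Grem1, Smoc1 and Lmx1b) and 1 higher (Wnt11), and signature M4 had 2 of 8 lower (Grem1 and Lmo1), with the same shares of all genes as background. Lmx1b, which specifies dorsal limb identity, stood at 49.4, 44.9 and 39.5 CPM in E1C8 and at 60.6, 62.9 and 67.3 CPM in E1C5, a log2 fold change of −0.52 (adjusted p = 0.00932). Wnt11, a ligand of non-canonical WNT signalling, stood at 9.40, 9.99 and 9.71 CPM against 5.14, 4.38 and 4.39 CPM, a log2 fold change of 1.07 (adjusted p = 0.00595). Both calls were kept without each library in turn, and with the depth covariate that of Wnt11 was kept and that of Lmx1b lost (adjusted p = 0.0543). The call of Lmo1 (log2 fold change −0.61, adjusted p = 0.0183) was lost without E1C5 replicate 2 or any E1C8 library (highest adjusted p 0.0778). Of the other signatures, P3 had 4 of 11 higher (Dlx5, Msx2, Bambi and Spry1) and M2 had 3 of 8 higher (Dkk1, Fgfr2 and Osr1), of which Dlx5, Msx2 and Bambi were kept without each library in turn. Signature C2 had 3 of 11 higher (Creb5, Col9a3 and Gsc) and Sox8 lower, C1 had 2 of 9 higher (Fgf9 and Tbx18), P1 had 2 of 11 higher (Msx2 and Runx2), P2 had Dkk1 higher, C3 had Gria2 higher and Hoxb7 lower, and P4 had Gja3 lower. Of these, Creb5, Fgf9 and Msx2 were kept without each library in turn, and the others were lost without E1C8 replicate 2 among others (highest adjusted p 0.166).

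The 8 genes that the study used to score peripheral and distal-autopodial progenitors showed 1 call, Msx2, which was lost with the depth covariate, beside 9.67% of all genes. Hoxa13, which marks the presumptive autopod, stood at 8.40, 5.22 and 5.95 CPM in E1C8 against 1.90, 4.91 and 2.16 CPM in E1C5 and 8.07 to 11.9 CPM in Wt. The mutants did not overlap, but the adjusted p was 0.0859. Hoxd13 had a log2 fold change of −0.15, Jag1 of 0.40, Tfap2b of 0.23, Lhx2 of −0.22, Asb4 of 0.01 and Rspo4 of −0.42, with adjusted p-values from 0.133 to 0.986.

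Pathways that meet BMP signalling in the limb bud were read next. Of 12 hedgehog pathway genes, 0 passed in either direction, and 4 had all E1C8 libraries below all E1C5 libraries, beside 17.8% of all genes. Shh stood at 6.06, 3.63 and 3.51 CPM in E1C8 and at 2.64, 3.54 and 5.75 CPM in E1C5, and its receptor and target Ptch1 had a log2 fold change of −0.34 (adjusted p = 0.213). The 10 Notch and 12 retinoic acid pathway genes also had 0 calls. All 10 Notch genes had a positive log2 fold change, with a median of 0.40, beside 8194 of all 16273 genes with a positive one. In 2 of the 10 all E1C8 libraries were above all E1C5 libraries, near the 16.9% of all genes. Among 16 FGF genes, 4 were higher (25%, beside 4.18% of all genes) and 0 lower, namely the ligand Fgf9, the receptors Fgfr2 and Fgfr3 and the feedback inhibitor Spry1. The list went both ways, with a median log2 fold change of −0.02. In 4 members all E1C8 libraries were above all E1C5 libraries and in 5 below, beside 16.9% and 17.8% of all genes. Fgf9 stood at 1.80, 2.96 and 2.52 CPM in E1C8, at 1.04, 1.03 and 0.979 CPM in E1C5 and at 3.59 to 4.78 CPM in Wt, so that it was lowest in E1C5, with a log2 fold change between the mutants of 1.31 (adjusted p = 0.00324). Its call was kept without each library in turn and with the depth covariate, whereas Fgfr2 and Fgfr3 lost theirs without E1C8 replicate 2 (adjusted p = 0.0539 for each) and Spry1 without E1C8 replicate 1 or 2 (highest adjusted p 0.0793). Among 19 WNT genes, 4 were higher (21.1%), Wnt11, Dkk1, Dkk2 and Rspo1, and Tcf7, which codes for a transcriptional effector of WNT signalling, was lower, at a log2 fold change of −0.69 (adjusted p = 0.0111, lost without E1C8 replicate 2 or 3, at most 0.0639). The Dkk1, Dkk2 and Rspo1 calls were lost in several of these refits, with an adjusted p of at most 0.175, all 3 without E1C8 replicate 2 and E1C5 replicate 3.

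Of 11 HoxA genes, Hoxa3 and Hoxa10 were higher, and of 10 HoxD genes, Hoxd4 was lower, beside 4.18% of all genes higher and 5.49% lower. Hoxa10, active along the stylopod and beyond, stood at 197, 178 and 188 CPM in E1C8 and at 140, 145 and 139 CPM in E1C5. This was a log2 fold change of 0.41 (adjusted p = 0.0147), lost without E1C8 replicate 1 or 3 (highest adjusted p 0.0590). Hoxa3 lost its call without 5 libraries, each E1C8 replicate among them (highest adjusted p 0.114), and Hoxd4 lost its call without E1C8 replicate 1 or 2 (highest adjusted p 0.0844). The hindlimb genes Tbx4 and Pitx1 were low in all libraries and higher in E1C8, Tbx4 at 3.47, 4.65 and 4.35 CPM against 1.81, 1.82 and 2.67 CPM, with Wt at 4.67 to 5.52 CPM. Pitx1 lost its call without any of the 6 mutant libraries (highest adjusted p 0.136) and with the depth covariate (adjusted p = 0.0714). The Tbx4 call (log2 fold change 0.99, adjusted p = 0.00791) was kept without each library in turn and lost with the depth covariate (adjusted p = 0.0861).

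The cartilage matrix genes that passed were all higher in E1C8. Of 10 tested, 5 passed (Col9a1, Col9a2, Col9a3, Matn4 and Cnmd), beside 4.18% of all genes, and 0 were lower, with a median log2 fold change of 0.62. Col9a1, which codes for a chain of cartilage type IX collagen, stood at 54.3, 69.1 and 70.1 CPM in E1C8, at 46.1, 46.6 and 43.3 CPM in E1C5 and at 45.3 to 64.3 CPM in Wt. Col9a2 stood at 2.00, 2.59 and 2.52 CPM against 0.612, 0.566 and 0.417 CPM, a log2 fold change of 2.20 (adjusted p = 0.0192). Sox9, the key transcription factor gene of cartilage, had a log2 fold change of 0.27 (adjusted p = 0.294), and Col2a1, which codes for type II collagen, at 42.6, 64.3 and 55.6 CPM against 30.0, 33.5 and 35.7 CPM, missed the threshold with an adjusted p of 0.05004. The 5 calls were lost without E1C8 replicate 2 or 3 or E1C5 replicate 2 or 3, with an adjusted p of at most 0.16. Of 16 fibrillar collagen and connective tissue matrix genes, Col1a1, Col1a2 and Postn were higher and 0 were lower, and these 3 calls were lost without E1C5 replicate 1 or 3 or E1C8 replicate 2 (highest adjusted p 0.132).

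**Figure D3:**
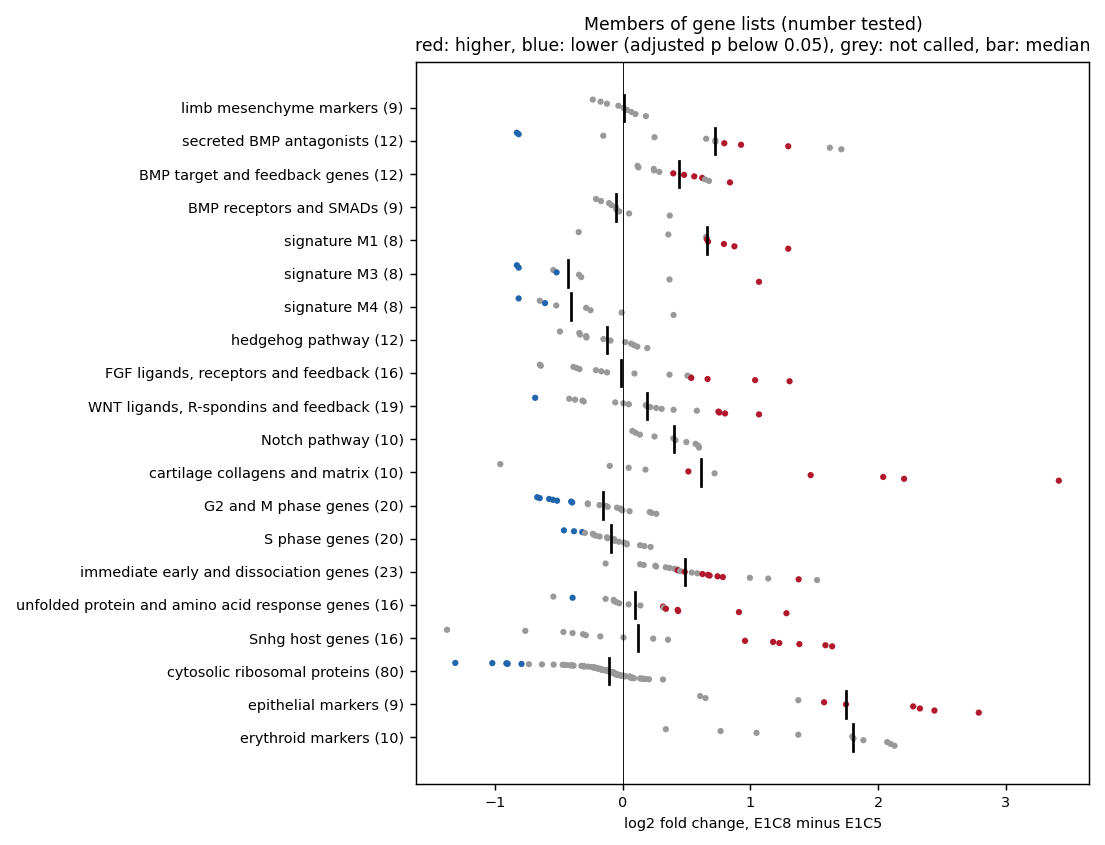
Each row is a gene list with the number tested in brackets, each point a member at its log2 fold change, E1C8 minus E1C5, and each black bar the median of the list. Red and blue points passed the test, and the BMP targets, immediate early genes and epithelial markers have red points with no blue ones, whereas the G2 and M phase genes have blue points with no red ones.

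The cell division genes that passed were all lower in E1C8. Of 20 genes of G2 and M phase, 7 passed, all lower (Mki67, Kif11, Tpx2, Cenpe, Nusap1, Top2a and Cenpf), and of 20 genes of S phase, Mcm4, Rrm1 and Mcm3 were lower, while 0 were higher in either list. These were 35% and 15% of the lists, beside 5.49% of all genes. Mki67, a marker of cycling cells, stood at 165, 185 and 181 CPM in E1C8 against 261, 300 and 274 CPM in E1C5 and 259 to 291 CPM in Wt. Kif11, a kinesin of the mitotic spindle, stood at 77.2, 86.0 and 77.2 CPM against 119, 132 and 132 CPM. Both were below every E1C5 and Wt library, with log2 fold changes of −0.65 (adjusted p = 0.00285) and −0.67 (adjusted p = 0.00371). The calls of Mki67, Kif11, Tpx2, Cenpe and Mcm4 were kept without each library in turn and with the depth covariate, and Top2a, Nusap1, Cenpf, Rrm1 and Mcm3 lost theirs in at least 1 of these refits, each without E1C8 replicate 2 (highest adjusted p over libraries 0.175). With the trend of fold change by gene length (described below) removed, Top2a, Cenpf and Rrm1 were not called, and the other members that passed stayed called. The list medians were small, −0.16 and −0.09, and Pcna, the sliding clamp of DNA replication, had a log2 fold change of 0.03.

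Immediate early genes, which respond within minutes to stimuli and to tissue dissociation, were higher in E1C8 where they passed. Of 23 tested, 8 passed (Jun, Ier2, Ier5, Dusp1, Klf6, Ppp1r15a, Gadd45b and Ccn1), beside 4.18% of all genes, and 0 were lower, with a median log2 fold change of 0.49. Dusp1, a phosphatase of MAP kinases, stood at 40.3, 40.3 and 40.5 CPM in E1C8 against 25.5, 24.3 and 28.7 CPM in E1C5 and 26.0 to 32.1 CPM in Wt. Jun stood at 150, 190 and 177 CPM against 106, 104 and 113 CPM, and at 139 to 159 CPM in Wt. Fos, at 122, 186 and 77.2 CPM against 90.6, 96.2 and 99.1 CPM, overlapped between the mutants and was not called. The calls of Jun, Ier2, Dusp1 and Gadd45b were kept without each library in turn, whereas with the depth covariate only that of Dusp1 was (adjusted p = 0.0245). The other 4 lost theirs without E1C8 replicate 2 among others (highest adjusted p 0.143). The handling of the tissue was not recorded per library, so its part in these values was not tested.

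Genes of the response to unfolded protein and amino acid shortage gave 6 of 16 higher (Ddit3, Trib3, Xbp1, Dnajb9, Herpud1 and Atf4) and 1 lower, Psat1, an enzyme of serine synthesis, beside 4.18% of all genes higher and 5.49% lower. Ddit3, which codes for the stress transcription factor CHOP, stood at 15.6, 16.2 and 18.1 CPM in E1C8 against 9.11, 7.81 and 9.64 CPM in E1C5 and 10.515 to 10.753 CPM in Wt. Its log2 fold change of 0.91 (SE 0.10, adjusted p = 0.00114) was kept without each library in turn, the other 6 calls were lost without E1C8 replicate 2 or 3, with an adjusted p of at most 0.147, and the list median was 0.09. Among 12 p53 targets, Pmaip1 and Trp53inp1 were higher, and Pmaip1, a proapoptotic gene, stood at 15.7, 18.3 and 17.5 CPM in E1C8, at 11.7, 11.6 and 11.1 CPM in E1C5 and at 27.3 to 29.5 CPM in Wt, so that both mutants were below Wt (log2 fold changes of −0.72 and −1.31, with adjusted p-values of 0.00209 and 2.19e-05). Trp53inp1 lost its call without E1C5 replicate 2 or E1C8 replicate 1 or 2 (highest adjusted p 0.0759) and with the depth covariate (adjusted p = 0.108). Gadd45g, Gadd45b and Gadd45a, growth arrest genes that were grouped after their values were seen, had log2 fold changes of 1.61, 1.38 and 0.71. All 3 passed, beside 4.18% of all genes higher, but the choice after the values leaves this count uninformative. With the depth covariate Gadd45g kept its call and Gadd45b lost it (adjusted p = 0.0598). Gadd45a was not among the named genes followed through the refits. Of 12 heat shock genes, Hspa1b and Hspb1 were higher and Hspd1 and Hsph1 lower, and 26 hypoxia and glycolysis genes gave P4ha2 higher and Hk2 lower, 3.85% each way. The heat shock and hypoxia calls were each lost without at least 1 library, with an adjusted p of at most 0.159.

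The Snhg genes, which are spliced, noncoding hosts of small nucleolar RNAs, gave 6 of 16 higher (Snhg16, Snhg5, Snhg15, Snhg12, Snhg17 and Snhg1), beside 4.18% of all genes, and 0 lower, with a list median of 0.12. Snhg16 stood at 59.2, 39.2 and 43.8 CPM in E1C8, at 17.1, 11.7 and 16.4 CPM in E1C5 and at 12.1 to 14.7 CPM in Wt. E1C8 stood apart from both other genotypes, at a log2 fold change of 1.64 (SE 0.17, adjusted p = 0.00102). Snhg15 stood at 55.1, 40.1 and 49.3 CPM against 21.2, 16.1 and 17.7 CPM, and Snhg1 at 555, 580 and 581 CPM against 305, 234 and 345 CPM, log2 fold changes of 1.38 and 0.96. The calls were kept without each library in turn except for Snhg5, whose adjusted p was 0.0505 without E1C8 replicate 3, and with depth per cell as a covariate Snhg16, Snhg17 and Snhg15 kept theirs. Gas5, another host gene of this kind, had a log2 fold change of −0.03 (adjusted p = 0.951).

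Ribosomal protein genes were called at about the share of all genes. Of 80 cytosolic ones, 0 were higher and 6 lower (Rpl35, Rpl38, Rpl41, Rps27, Rps28 and Rps29), which is 7.5% beside 5.49% of all genes, with a list median of −0.11. Rpl35 stood at 447, 532 and 916 CPM in E1C8 and at 1801, 1698 and 1210.2 CPM in E1C5, a log2 fold change of −1.31 (adjusted p = 0.0199). None of the 6 calls was kept without each library in turn, nor with the depth covariate, and without E1C8 replicate 2 the adjusted p was 0.0825 for Rpl35 and at most 0.157 for the others. Ribosomal protein genes have many processed copies in the genome, so that reads can be lost or shared between them. Of 81 nuclear genes of the respiratory chain 1 was higher (Uqcrc1) and 1 lower (Atp5g1), 1.23% each way. Of 78 mitochondrial ribosomal proteins 2 were higher (Mrpl47 and Mrpl9), 2.56%. These shares were below the 4.18% of all genes higher and 5.49% lower. Of 13 mitochondrially encoded genes and 18 sterol synthesis genes 0 passed. The 4 calls were lost without E1C8 replicate 2 among others (highest adjusted p 0.127). Of 338 Zfp zinc-finger genes, 7 were higher (Zfp14, Zfp82, Zfp97, Zfp367, Zfp384, Zfp691 and Zfp870) and 4 lower (Zfp106, Zfp568, Zfp609 and Zfp638), 2.07% and 1.18%, below the shares of all genes. Zfp97, Zfp384 and Zfp568 kept their calls without each library in turn. Of 49 protocadherins, Pcdh8 and Pcdh9 were higher, 4.08% beside 4.18% of all genes, and of 8 nuclear long noncoding RNAs, Miat was higher. These calls were each lost without E1C8 replicate 2 among others (highest adjusted p 0.304).

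The genes with the largest changes at 5 CPM or more began, on the higher side, with Mgat4c, an N-glycan acetylglucosaminyltransferase gene, at 9.93, 7.33 and 4.00 CPM in E1C8 against 1.09, 0.463 and 1.41 CPM in E1C5 (log2 fold change 2.75, adjusted p = 0.00758). H2-D1, a classical class I histocompatibility gene, stood at 12.3, 13.0 and 18.6 CPM against 3.02, 2.54 and 1.64 CPM, with Wt at 8.41 to 17.6 CPM. In H2-D1 it was E1C5 that stood apart from Wt (log2 fold change −2.36, adjusted p = 0.0141). Creb5, a limb transcription factor gene, likewise stood at 14.1, 14.0 and 14.4 CPM in E1C8, at 5.23, 4.46 and 6.07 CPM in E1C5 and at 9.97 to 15.3 CPM in Wt. Ackr3, a chemokine scavenger receptor gene, Txnip, Gm266, Gadd45g and Snhg16 were instead higher in E1C8 than in Wt as well, with E1C5 not called against Wt. Gm11361, Gm20075, Ube2l6, Tbx3os1, Dlx5, Hist3h2ba and Snhg5 complete the 15. Of these 15 largest, 13 kept their calls without each library in turn, Hist3h2ba and Snhg5 being the exceptions (highest adjusted p 0.148 and 0.0505). Mmrn2, chosen after its values were seen, had the smallest p in the whole table, with a mean of 3.85 CPM ± 0.247 (SD, n = 3) in E1C8, 0.696 ± 0.058 in E1C5 and 4.98 ± 1.196 in Wt (log2 fold change 2.45, adjusted p = 0.000222).

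On the lower side, 7 of the 15 were histone genes, which are transcribed in S phase and whose main transcripts lack a poly(A) tail. Hist1h1e, a linker histone gene, stood at 164, 137 and 133 CPM in E1C8 against 582, 526 and 282 CPM in E1C5 and 251 to 427 CPM in Wt. Hist1h4h stood at 5.73, 6.54 and 11.4 CPM against 110, 92.7 and 30.8 CPM, a log2 fold change of −3.24 (SE 0.75, adjusted p = 0.0472), with Wt between 33.3 and 122 CPM. Over all 62 genes with symbols beginning Hist, a group formed after values were seen, 11 were lower and 3 higher, beside 5.49% and 4.18% of all genes, with a median of −0.96. The copies are nearly identical, so single members are uncertain. Lin28a, an RNA-binding regulator of let-7, stood at 3.87, 3.36 and 3.12 CPM against 10.2, 8.82 and 19.4 CPM, and Hebp2, a haem-binding protein gene, at 5.53, 5.41 and 5.72 CPM against 18.50, 18.95 and 10.85 CPM. Hist1h2ai, Hist1h4a, Hist2h2aa1, Hist2h2ac, Hist1h1c, Rpl35, Gldc, Gm7879, 1810009A15Rik, Gm10260 and Gm47320 complete the 15. Of these 15, only Hebp2 kept its call (log2 fold change −1.53, adjusted p = 0.00525) without each library in turn, the other 14 being lost without between 3 and 7 of the libraries, with an adjusted p of at most 0.17.

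Markers of other cell types were read in the mesenchymal cells. Of 9 epithelial markers, 6 were higher in E1C8 (Krt5, Krt14, Trp63, Perp, Fgf8 and Wnt6) and all 9 had their E1C8 libraries above their E1C5 libraries, beside 4.18% and 16.9% of all genes, with a median log2 fold change of 1.75. The summed level of 10 such markers, of which Epcam was at 0 by the gate, was 18.0, 14.8 and 13.4 CPM, here without TMM scaling, in E1C8, 6.73, 7.49 and 6.51 in E1C5 and 7.73 to 11.8 in Wt. Fgf8, the ligand of the apical ectodermal ridge, stood at 2.00, 1.36 and 1.98 CPM against 0.351, 0.360 and 0.338 CPM. With depth per cell as a covariate, Fgf8 and Perp kept their calls and Krt5, Krt14, Trp63 and Wnt6 lost theirs. Trp63 and Wnt6 lost their calls without E1C8 replicate 3 (adjusted p = 0.0509 for Trp63), Wnt6 also without 4 other libraries (highest adjusted p 0.139). Of 3 muscle progenitor markers tested, Myf5 and Met were higher, beside 4.18% of all genes. Myf5 stood at 0.666, 1.08 and 0.815 CPM against 0.147, 0.0687 and 0.103 CPM. These 3 markers summed to between 2.93 and 8.69 CPM in E1C8 and between 1.99 and 2.97 CPM in E1C5, with overlap. The sum of 6 markers, without TMM scaling, ran from 327 to 362 CPM in E1C8 and from 194 to 254 in E1C5. In Wt this sum ran from 233 to 340 CPM, which reached into the E1C8 range. Most of the sum was Itm2a, which was not among the 3 tested, and Lbx1 was at 0 by the gate. Met lost its call without 5 libraries, E1C8 replicate 2 among them (adjusted p = 0.198). Of 10 erythroid markers 0 passed and 6 had all E1C8 libraries above all E1C5 libraries, beside 16.9% of all genes. Their median was 1.80, and the sum of erythroid markers was 5289 to 14360 CPM against 1057 to 4222. Of 7 endothelial markers, 0 passed and 4 had all E1C8 libraries above all E1C5 libraries, beside the same 16.9%, with a median of 0.64. Of 4 myeloid and 3 Schwann cell and neural crest markers, 1 passed, Erbb3, beside 9.67% of all genes. Erbb3 was higher in E1C8, at 0.267, 0.304 and 0.282 CPM, and lost its call without 4 libraries (highest adjusted p 0.107). In E1C8 replicate 1 some of these levels rest on few UMIs, such as 7 of Krt14 and 8 of Wnt6. The gate counts raw UMIs, and E1C8 cells were the shallower. Of 540, 8449 and 7841 E1C8 cells with Prrx1 at 3 UMIs or more, 411, 6561 and 6063 passed the limit of 0 UMIs. In E1C5, 2823 of 3811, 1625 of 2032 and 6815 of 8727 such cells passed it. The part of the gate in these marker levels was not tested. The fit was repeated without cells holding 2 or more of a shorter list of other-lineage markers, chosen after the data were seen. That refit called 687 genes higher and 895 lower in E1C8, and 1537 of these were also called with all cells. The part of such transcripts in the cells that stayed was not tested.

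Gene length went with the direction of the calls. Genes with over 8000 exonic bases were higher in 2.14% of cases and lower in 12.4%, and those of 1000 to 2000 bases were higher in 6.41% and lower in 1.33%. The median log2 fold change was −0.11 over the 4067 longest genes, of 6358 bases or more, and 0.09 over the 4070 shortest, of up to 2339 bases, a difference of −0.20. In each library's own deviation from the mean of all, the difference between these long and short genes was −0.138, −0.0931 and −0.114 in E1C8 and −0.0532, −0.00913 and 0.203 in E1C5, and 0.186, 0.0319 and 0.0204 in Wt. E1C5 replicate 3 stood apart within its genotype, and without it the difference was −0.10. The 243 genes of 500 bases or less had a median of −0.09, with 8 higher and 10 lower, and the 31 of them above 5 CPM a median of −0.47. E1C8 had the shallower cells, and with depth per cell as a covariate the difference was −0.35. With limma on means over cells it was −0.072.

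**Figure D4:**
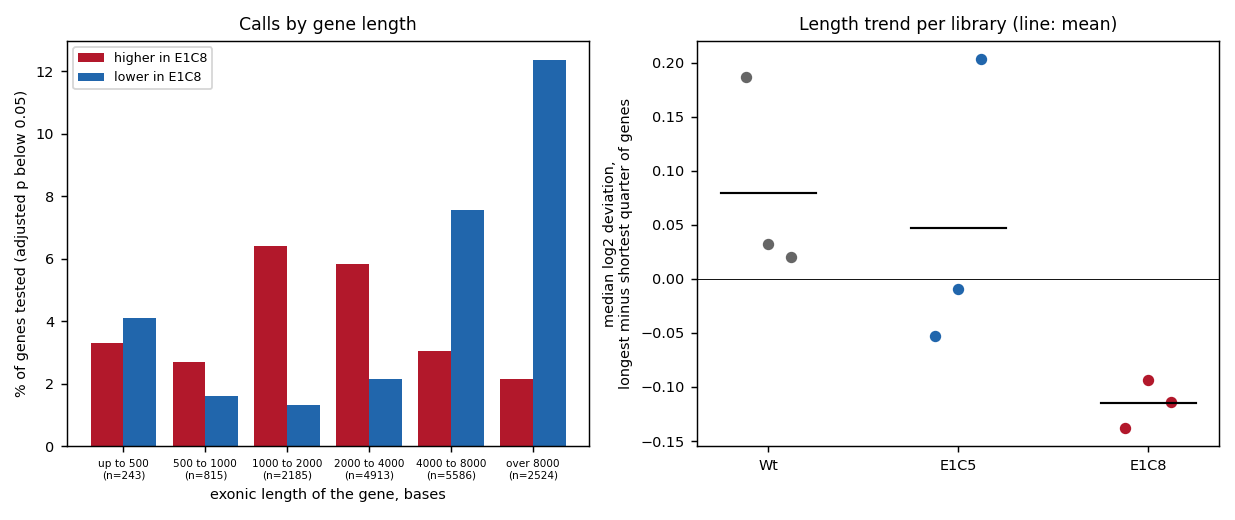
The left panel gives the percentage of genes tested that were higher (red) or lower (blue) in E1C8 by exonic length in bases, and the right panel the difference (log2) of the 4067 longest minus the 4070 shortest genes for each library, with a line for the mean. Lower calls rise to 12.4% above 8000 bases, and the 3 E1C8 libraries all lie below 0 while E1C5 replicate 3 lies at 0.203.

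The number of calls depended on the fit. Refitting with depth per cell as a covariate left 718 calls, and with the haemoglobin share as a covariate, chosen after the data were seen, 4 (Gm7879, Hebp2, Mmrn2 and Gm30564), at 1841 genes with an unadjusted p below 0.05 against 4296 in the fit without it. Haemoglobin share and depth did not overlap between the genotypes, so that they and the genotype cannot be told apart in these 6 libraries. Of the 146 genes named by the fixed rule that passed, 47 kept the call without each library in turn, 54 with the depth covariate and 2 with the haemoglobin covariate. Mmrn2 and Gadd45a, chosen after their values were seen, are not among the 146.

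**Figure D5:**
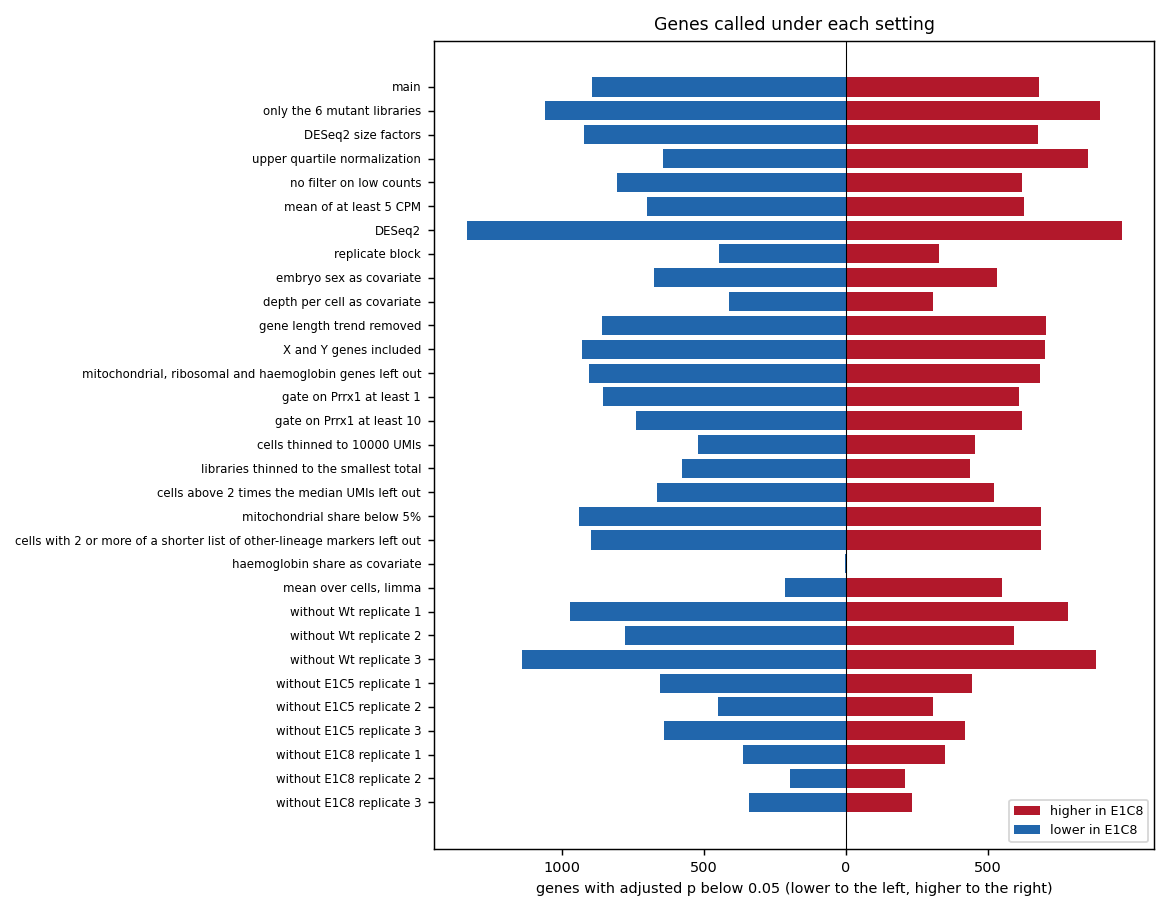
Bars give the genes with adjusted p below 0.05 under each setting, lower in E1C8 to the left and higher to the right. The count runs from 403 without E1C8 replicate 2 to 2305 with DESeq2, and falls to 4 with the haemoglobin covariate.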

How the data were processed

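Single-cell libraries (10x 3' v3.1) were made from pairs of mouse forelimb buds, 3 per genotype. The authors counted UMIs per gene and barcode with CellRanger on mm10, as the submitters' processing notes say, and deposited matrices of raw counts. The annotation release is not given in the sources used here. Barcodes were filtered as stated in the report, with no doublet caller, and the UMIs of the chosen cells were summed per library. X and Y genes and 4 transgene features were left out. Genes passing edgeR's filterByExpr were scaled by TMM and tested with edgeR 4.0.16 (robust quasi-likelihood fit of all 9 libraries, R 4.3.3), with Benjamini-Hochberg adjustment at 0.05. DESeq2 1.42.0 and limma 3.58.1 were alternatives. The labels number the libraries as replicates and the study describes them as separate pairs of limb buds, so p-values measure the spread between such pairs. Counts at the 3' end were not scaled by length, and each gene was compared only with itself.

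Named genes were Grem1, then, per direction, the 15 with the largest change among genes past the threshold that had a mean of at least 5 CPM in the higher genotype and no overlap between the genotypes, then every list member past the threshold, and the 8 score genes, Msx1, Shh, Ptch1 and Sox9 whatever their result. Other list members that did not pass (such as Bmp4, Id1, Fmn1, Col2a1, Fos and Gas5) were named after their values were seen. Members and lists were chosen with earlier results of these data known. Summed UMIs per library ran from 14545561 to 290105146. Tested on data simulated for this comparison (16079 genes), the fit recovered 15 of 100 genes changed by 0.5 and 63 of 100 changed by 1 on the log2 scale, with 6 false calls. Apart from random spread, the simulated libraries differed only in total UMIs and in the changed genes. They held no length trend and no difference in haemoglobin share, so false calls under such differences were not measured. Shares of cells were compared by exact permutation tests. Intervals over cells were not used, since cells are not replicates.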

Additional observations from a re-analysis of the deposited data

How the results depend on the processing

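The count of 1574 genes was within 1.5 times under most settings, and fell to 976 with cells thinned to 10000 UMIs, 1015 with libraries thinned to the smallest total, 718 with depth per cell as a covariate, 765 with limma on means over cells and 4 with the haemoglobin share as a covariate. It ran from 403 to 2019 when 1 library was left out. Upper quartile normalization turned the split to 853 higher and 644 lower, and limma gave 550 higher and 215 lower. For Grem1 the log2 fold change was −0.83 without a filter on low counts, −1.06 with depth, −1.02 with haemoglobin and −0.64 with limma (adjusted p = 0.0578, 0.0755, 0.274 and 0.087), none past the threshold, and ran from −0.98 to −0.64 when 1 library was left out. The Grem1 share differed by −16.4 points without thinning and by −2.91 at 5000 UMIs, and ran from −6.96 to −4.01 without 1 library at 10000. The longest-minus-shortest difference was −0.35 by exonic length and −0.29 by span with depth as a covariate, −0.0040 and −0.046 with the length trend removed, which its construction explains, and −0.072 and −0.080 with limma. When 1 library was left out it ran from −0.26 to −0.10 and from −0.23 to −0.12. The haemoglobin share differed by 1.202 points with Prrx1 at 1 UMI or more. Apart from the length trend, the cause of these changes was not tested. Of the named genes' values under all settings, 3566 stayed on their side of the threshold, 1051 lost it, 9 gained it, and 0 of the 146 that passed changed sign, while some that did not pass, such as Shh, did.

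The replicate number as a block gave 773 genes (327 higher, 446 lower) and a log2 fold change of −0.81 for Grem1 (adjusted p = 0.0563). Between the mutants, libraries of the same number had correlated deviations of −0.11, −0.0526 and −0.147, and those of different numbers ran from −0.218 to 0.263. With so few libraries per genotype, these values cannot show whether the numbers pair the samples. The study states that isolation and sequencing were repeated with a pair of limb buds per genotype each time, but not whether the numbers follow those rounds. The haemoglobin covariate and a shorter list of other-lineage markers (1582 genes) were chosen after seeing the data. Leaving out cells with 2 or more markers of the whole list left 0 to 135 cells per library and was not run. Changes of 0.5 on the log2 scale were mostly missed on simulated data, and the part of depth in this was not tested.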
